A study of Mus musculus with 35 samples.

Results

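The genes described here are 10 members of the machinery that decides whether a cell leaves the G1 phase of the cell cycle. They are the D-type cyclins Ccnd1, Ccnd2 and Ccnd3, cyclin E1 (Ccne1), the kinases Cdk4 and Cdk6, the inhibitors Cdkn1b, Cdkn2c and Cdkn2d, and the retinoblastoma gene Rb1. They were chosen by symbol, and each was read from 1 probe set, the one with the highest mean over all 35 arrays. All 10 were found among the 12393 genes measured, and none was removed by a filter on low values.

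Mouse B cells and B-cell tumours were profiled on Affymetrix Mouse 430A2 arrays, in 9 groups. The tumour groups were 6 lymphoid tumours of Lig4/p53 double knock-out mice, 3 of dual-transgenic mice carrying Bcl6 and Myc, and 4 of Bcl6 knock-in mice. The labels call the Bcl6 mice both transgenic and knock-in, and do not give the promoter that drives either gene. The normal groups were sorted from wild-type mice. From bone marrow came 3 samples of pro-B cells (gated as B220+, IgM- and high for CD43), 3 of pre-B cells (the same gate, but low for CD43) and 3 of plasma cells (Cd138+, Cd93- and low for B220). From spleen came 4 samples of transitional B cells (positive for B220 and Cd93), 5 of germinal centre (GC) B cells (B220+ and high for the lectin PNA) and 4 of plasmablasts (B220+ and Cd138+ without Cd93). The normal mice were of strain 129 for pre-B and transitional cells and for pro-B replicates 1 and 2, and of strain B6 for the rest. Ages are not given in the sources used here, and nothing says whether replicates came from separate mice, so that p-values measure only the spread between these arrays, which may be technical.

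In G1, D-type cyclins bind Cdk4 or Cdk6, and the active kinase phosphorylates the Rb protein, which then releases E2F factors that switch on genes for DNA replication, Ccne1 among them. The INK4 inhibitors, here p18 (Cdkn2c) and p19 (Cdkn2d), bind Cdk4 and Cdk6, while p27 (Cdkn1b) acts mainly on the cyclin E kinase Cdk2. In B cells Ccnd3 is known to be needed for the expansion of pre-B cells and of GC cells, and Cdkn2c for the end of division on the way to plasma cells.

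Levels below are log2 probe set intensities, and differences are log2 differences, with the standard error of the limma fit after ±. A member is called higher or lower only where its Benjamini-Hochberg adjusted p over all 12393 genes was under 0.05. Levels of different genes are not set against each other. In bulk samples such as these, fewer cells of a type and less RNA per cell cannot be told apart.

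Several arrays stood apart. The values of 3 arrays were narrowly spread: their interquartile range was 2.09 for pro-B replicate 1, 2.03 for pre-B replicate 2 and 2.15 for the second Bcl6 tumour. They are called the narrow arrays below. The 3 tumours labelled Myc/Bcl6 came next, with 2.33 to 2.85 against 3.95 to 4.14 in GC cells. They were kept in the fits without the narrow arrays, and the part of this spread in their differences was not tested. Pre-B replicate 2 also stood apart in its markers. Its early B list averaged 5.98, against 8.75 and 8.25 in pre-B replicates 1 and 3. Its mature B list averaged 6.06, against 4.83 and 4.97. Whether it held other cells was not tested. Control probe sets at both ends of Actb and Gapdh gave a 3' minus 5' log2 difference, a measure of RNA shortening, of 2.25 to 4.69 over the tumours. Plasma cell replicates 1 and 2 had 4.59 and 4.46, and the remaining sorted arrays 0.451 to 2.95. Control probe sets for 18S rRNA gave 4.14 to 6.15 in the tumours and 4.02 to 7.38 in plasma cells, against 10.04 to 11.3 in all other sorted cells. In the 3' minus 5' difference no tumour labelled Bcl6 or Myc/Bcl6 (3.23 to 4.69) overlapped with GC cells (0.680 to 1.55). Tumour and RNA quality thus cannot be told apart in the comparisons of these tumours with GC cells. The highest Lig4/p53 tumour (3.64) also lay just below the lowest tumour labelled Bcl6 (3.65). Genotype and RNA quality therefore cannot be told apart between these tumour groups either. Some levels went against the labels. Myc was 4.93 to 5.41 in the tumours labelled Myc/Bcl6 and 5.77 to 7.19 in those labelled Bcl6, against 7.75 to 10.2 in GC cells, and Bcl6 was 4.18 to 9.10 and 6.23 to 8.52 in the same tumours, against 10.6 to 11.6 in GC cells. Whether these probe sets read the transgenes is not given in the sources used here, and both groups are called by their labels. Plasma cell markers did not set the plasma cell arrays apart from plasmablasts: 0 of 6 were called in limma, and 1, Fkbp11, had an unadjusted p under 0.05 (1.65 higher, adjusted p = 0.127), with Prdm1 at 6.90 to 7.07 in plasma cells and 5.52 to 7.34 in plasmablasts. The pro-B marker Dntt was 10.9 to 12.1 in pro-B cells, but 3.32 to 4.21 in Lig4/p53 tumours. It is 1 of 6 early B genes, of which 2 were called lower in these tumours and 0 higher (7.91% and 13.2% of all genes). Of the 6, 3 had a higher mean in the tumours, and the median difference was 0.243, against -0.065 for all genes. The list averaged 5.32 to 7.17 in these tumours and 7.73 to 9.16 in pro-B cells. All 3 germinal centre genes were lower in tumours labelled Bcl6 and Myc/Bcl6 than in GC cells (median differences -1.964 and -2.331), so that pro-B and GC cells are the cells the tumours are compared with, not shown to be their origin.

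Cyclin D1 (Ccnd1; probe set 1448698_at, gene at chromosome 7, 144929931 to 144939831, GRCm38.p6) was highest in the Lig4/p53 tumours. Its lowest, median and highest levels there were 8.61, 9.56 and 10.38. Levels were 4.94, 5.80 and 5.85 in the tumours labelled Myc/Bcl6, and 6.52, 6.24, 7.47 and 6.88 in those labelled Bcl6. On this probe set every Lig4/p53 tumour was thus above every other tumour. Pro-B arrays gave 4.88, 8.68 and 6.39, and pro-B replicate 2 reached into the range of the Lig4/p53 tumours. Ccnd1 was higher in Lig4/p53 tumours than in pro-B cells by 2.89 ± 0.57 (adjusted p = 0.000495) and than in tumours labelled Bcl6 by 2.77 ± 0.52 (adjusted p = 0.000204). The other 2 probe sets of the gene differed. Against tumours labelled Bcl6 both were called higher (1.09 ± 0.28 for 1417419_at and 1.36 ± 0.47 for 1417420_at), but against pro-B cells neither was called (0.28 ± 0.31 and 1.39 ± 0.51, adjusted p = 0.543 and 0.0509). On 1417419_at tumours labelled Myc/Bcl6 had the highest mean (5.55, range 4.88 to 6.01), above Lig4/p53 tumours (5.04, range 4.46 to 5.49). On 1417420_at Lig4/p53 tumours had 6.04 to 7.94, and tumours labelled Bcl6 and Myc/Bcl6 reached 6.99 and 6.24.

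Among the normal stages Ccnd1 was 5.68, 4.67 and 6.07 in pre-B cells, 5.73, 5.65, 4.83 and 4.44 in transitional cells, 6.76, 6.96, 4.97, 4.74 and 5.32 in GC cells, 5.81, 5.33, 5.86 and 5.74 in plasmablasts, and 8.24, 8.21 and 6.44 in plasma cells. All 3 plasma cell arrays lay above all 4 plasmablast arrays. The difference, 1.94 ± 0.70, did not pass (adjusted p = 0.0695). It was called without the 3 narrow arrays (adjusted p = 0.0152), and the 2 plasma cell arrays with the highest Ccnd1 were those with the large 3' minus 5' difference.

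**Figure D1:**
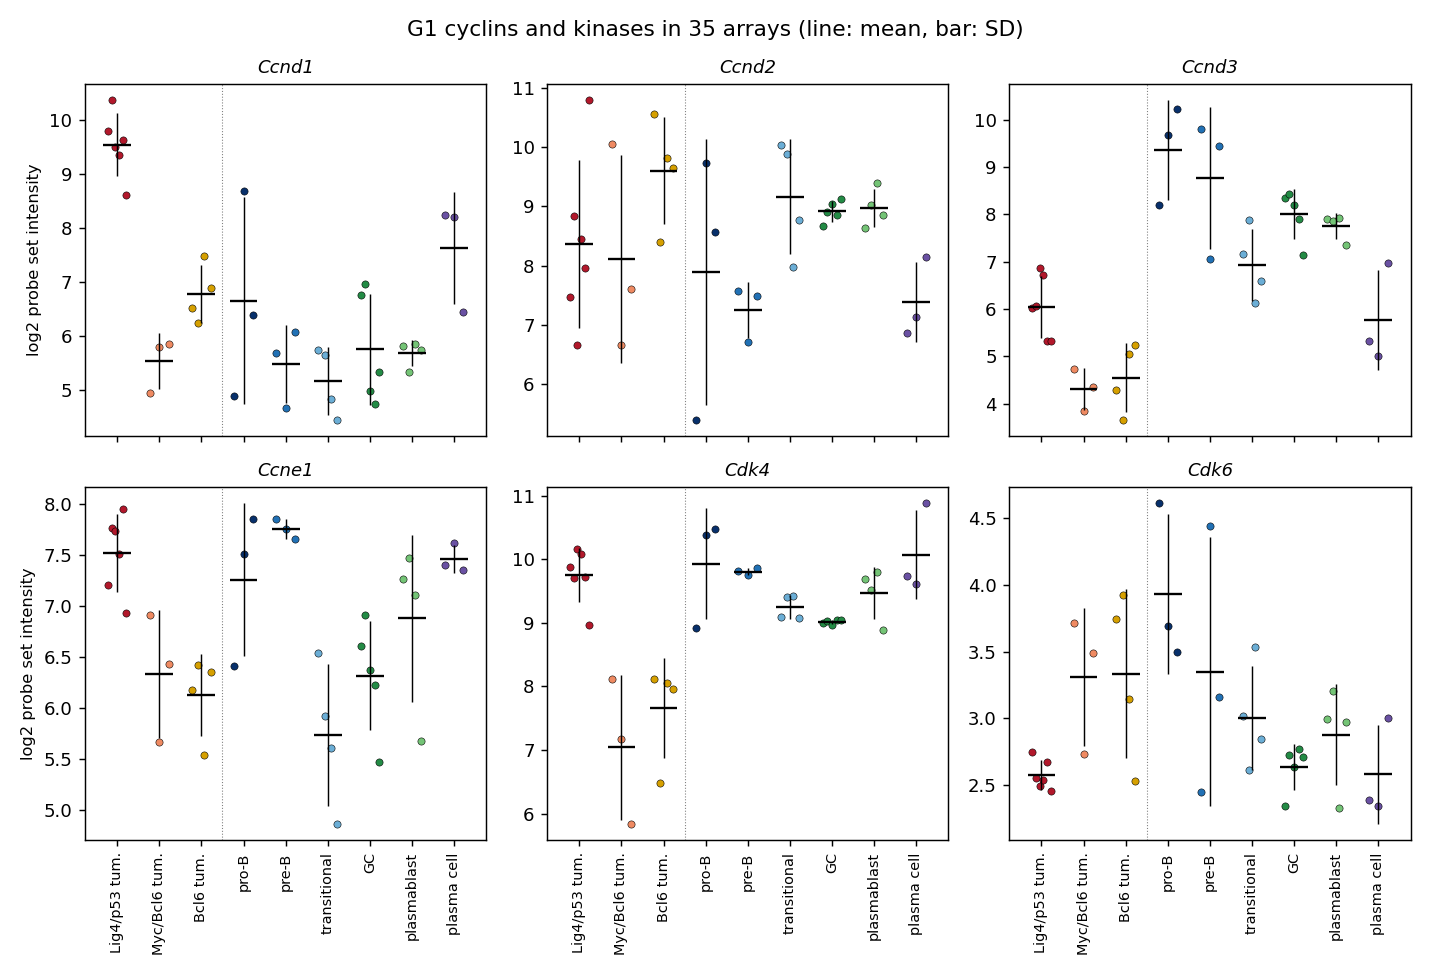
Log2 probe set intensity (vertical axes, separate scale for each gene) of the cyclins and kinases in each of the 35 arrays, grouped along the horizontal axis with tumours left of the dotted line and sorted stages right of it; points are arrays, horizontal lines group means and vertical lines the SD. Ccnd1 stands at 8.61 to 10.38 in the Lig4/p53 tumours, Ccnd3 is lower in all 3 tumour groups than in pro-B or GC cells, and Cdk4 lies at or below 8.12 in every tumour labelled Bcl6 or Myc/Bcl6.

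Cyclin D2 (Ccnd2; 1434745_at, chromosome 6, 127125162 to 127152188) is the D cyclin that B cells are known to induce when their antigen receptor is engaged. It was not called in any of the 10 comparisons. Levels were 6.65 to 10.81 with a median of 8.21 in Lig4/p53 tumours, 10.06, 6.65 and 7.61 in tumours labelled Myc/Bcl6, and 10.56, 8.39, 9.82 and 9.65 in those labelled Bcl6. Among the stages they were 5.38, 9.74 and 8.56 in pro-B cells, 7.56, 6.70 and 7.49 in pre-B cells, 10.04, 9.89, 7.97 and 8.77 in transitional cells, 8.67, 8.91, 9.04, 8.85 and 9.12 in GC cells, 8.64, 9.02, 9.40 and 8.86 in plasmablasts, and 6.86, 7.14 and 8.15 in plasma cells. All 4 transitional arrays were above all 3 pre-B arrays, by 1.91 ± 0.67 on average (adjusted p = 0.103), and all 3 plasma cell arrays below all 4 plasmablast arrays, by -1.60 ± 0.67 (adjusted p = 0.131). Without the narrow arrays both differences were called (1.64 ± 0.47 and -1.60 ± 0.41, adjusted p = 0.0244 and 0.00563).

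The 7 probe sets of Ccnd2 gave different answers for the tumours. Between tumours labelled Bcl6 and GC cells the probe set used differed by 0.69 ± 0.70, but 4 of the other 6 were called higher, with 3.73 ± 0.73 for 1448229_s_at, 3.15 ± 0.79 for 1455956_x_at, 2.11 ± 0.65 for 1416123_at and 1.95 ± 0.70 for 1416122_at. The remaining 2, 1416124_at (-0.69 ± 0.47) and 1430127_a_at (-0.92 ± 0.59), were not called. The same 4 were called lower in Lig4/p53 tumours than in tumours labelled Bcl6, by -3.98 ± 0.70, -3.17 ± 0.76, -2.50 ± 0.63 and -2.35 ± 0.68, where the probe set used gave -1.24 ± 0.68 (adjusted p = 0.174). A statement on Ccnd2 in these tumours therefore depends on the probe set.

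**Figure D2:**
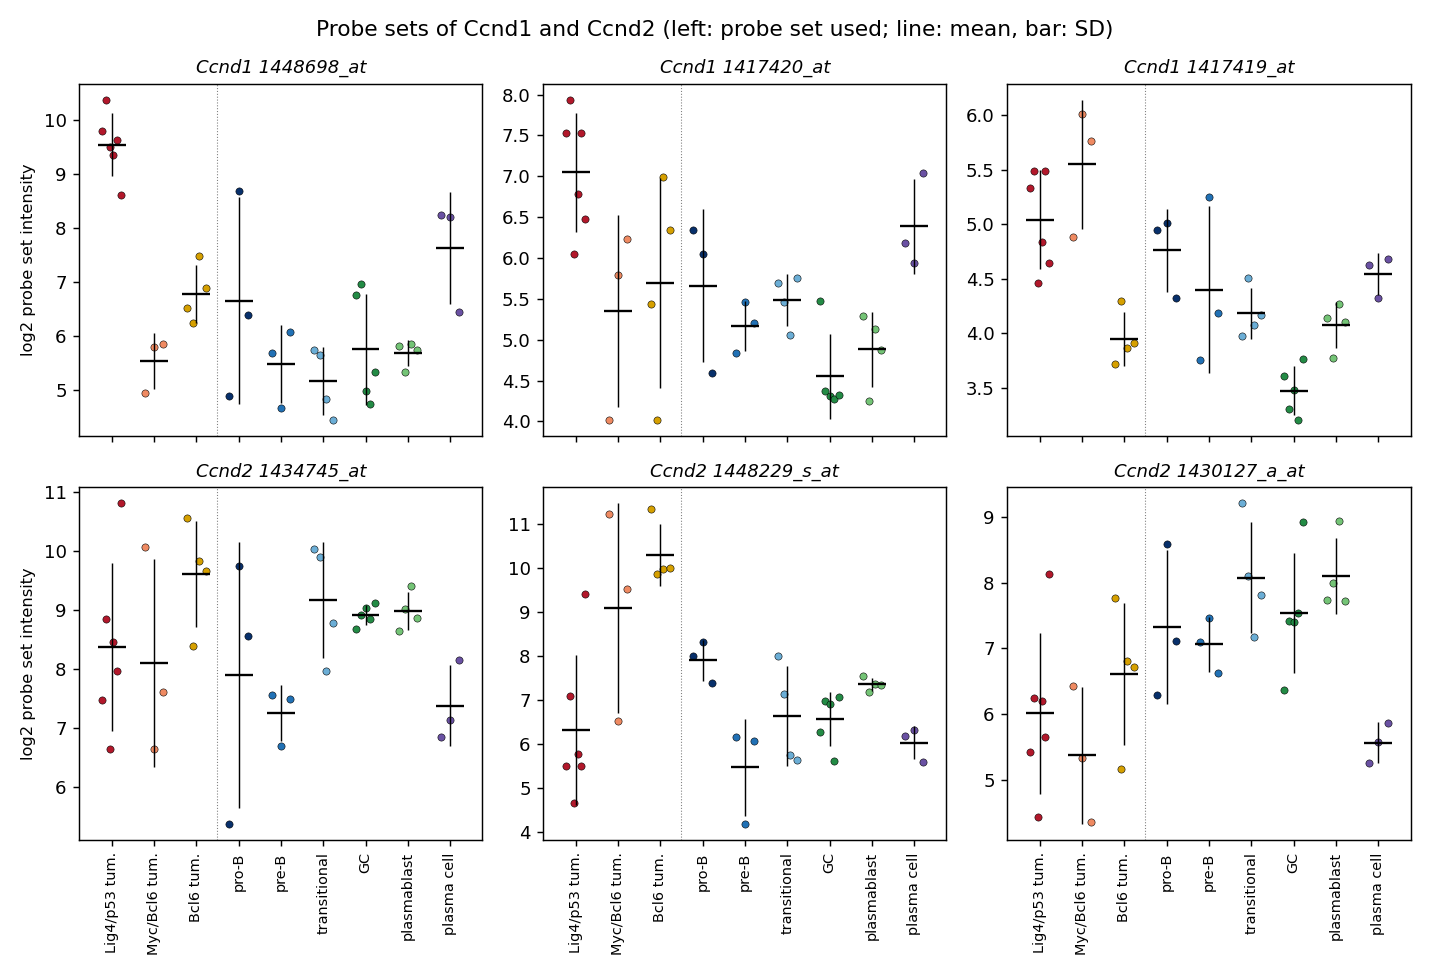
Log2 intensity (vertical axes, separate scales) of 3 probe sets of Ccnd1 and 3 of the 7 of Ccnd2 in every array, with groups on the horizontal axis, means as horizontal and SD as vertical lines; the probe set used is at the left of each row. In tumours labelled Bcl6, 1448229_s_at of Ccnd2 lies above all GC arrays, while 1430127_a_at does not.

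Cyclin D3 (Ccnd3; 1415907_at, chromosome 17, 47505051 to 47599689) was the member with the widest range of group means, 5.05 on the log2 scale. Lig4/p53 tumours had 5.33, 6.03 and 6.86 as lowest, median and highest level, tumours labelled Myc/Bcl6 4.74, 3.85 and 4.36, and tumours labelled Bcl6 4.28, 3.65, 5.05 and 5.23. Pro-B cells had 8.19, 9.68 and 10.23 and GC cells 8.34, 8.44, 8.20, 7.89 and 7.14, so that no Lig4/p53 tumour reached pro-B cells and no other tumour GC cells. Ccnd3 was lower in Lig4/p53 tumours than in pro-B cells (-3.32 ± 0.53, adjusted p = 4.72e-05), in tumours labelled Myc/Bcl6 than in GC cells (-3.69 ± 0.55, adjusted p = 5.09e-06) and in tumours labelled Bcl6 than in GC cells (-3.45 ± 0.50, adjusted p = 5.66e-06). With the 3' minus 5' difference as a covariate the last of these became -1.93 ± 0.66 and was no longer called (adjusted p = 0.0688). Between tumours, Ccnd3 was higher in Lig4/p53 tumours than in those labelled Bcl6 by 1.498 ± 0.48 (adjusted p = 0.0215), with no overlap. This call was lost with the covariate (0.77 ± 0.49, adjusted p = 0.272) and without Bcl6 tumour replicate 1 or 2 or Lig4/p53 tumour replicate 3 (adjusted p of 0.0524 to 0.118).

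Along the stages Ccnd3 averaged 9.37 ± 1.05 in pro-B cells, 8.77 ± 1.495 in pre-B cells, 6.94 ± 0.76 in transitional cells, 8.003 ± 0.52 in GC cells, 7.76 ± 0.28 in plasmablasts and 5.76 ± 1.05 in plasma cells (SD, n as above). The stages differed in the F-test of the fit (adjusted p = 0.00235). Plasma cells had 5.32, 5.01 and 6.96, against 7.90, 7.87, 7.93 and 7.35 in plasmablasts, a difference of -2.0 ± 0.61 (adjusted p = 0.0311) with no overlap. The call was lost without plasma cell replicate 1 or 2, or without any 1 of plasmablast replicates 1 to 3 (adjusted p of 0.0675 to 0.176), and the difference was -0.80 (adjusted p = 0.676) without plasma cell replicates 1 and 2 together. Transitional cells had 7.16, 7.89, 6.12 and 6.59, against 9.80, 7.05 and 9.45 in pre-B cells. The low pre-B value is from the narrow array. The difference of -1.83 ± 0.61 did not pass (adjusted p = 0.0861), but was -2.69 ± 0.49 without the narrow arrays (adjusted p = 0.000969). In the same fit GC cells were higher than transitional cells by 1.06 ± 0.38 (adjusted p = 0.0324, against 0.196 with all arrays). With strain as a covariate and all arrays kept, the difference was -0.23 ± 1.10 (adjusted p = 0.964). Only pro-B cells came from both strains, so the strain term rests on pro-B replicate 3 (B6) against replicates 1 and 2 (129). Replicate 1 is a narrow array. Strain and stage therefore cannot be told apart in this step. Ordered by mean, pro-B and pre-B cells, pre-B and GC cells, and GC cells and plasmablasts each lay closer to each other than the larger of their SDs.

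Cyclin-dependent kinase 4 (Cdk4; 1422441_x_at, chromosome 10, 127063535 to 127067288) is a partner of all 3 D cyclins. Lig4/p53 tumours had 8.96, 9.79 and 10.17 as lowest, median and highest level, tumours labelled Myc/Bcl6 8.12, 7.17 and 5.84, and tumours labelled Bcl6 8.11, 6.49, 8.06 and 7.96. GC cells held 9.0, 9.02, 8.96, 9.04 and 9.04, the narrowest spread of any member in any group of 4 or more (SD 0.034). Every tumour labelled Bcl6 or Myc/Bcl6 was below every GC array. Cdk4 was lower in tumours labelled Myc/Bcl6 (-1.97 ± 0.42, adjusted p = 0.000418) and in those labelled Bcl6 (-1.36 ± 0.38, adjusted p = 0.00884) than in GC cells, and higher in Lig4/p53 tumours than in those labelled Bcl6 (2.09 ± 0.37, adjusted p = 8.8e-05). The other 2 probe sets of Cdk4 were called in the same direction in these 3 comparisons. Without Bcl6 tumour replicate 2, the narrow array and the lowest of its group, the difference between tumours labelled Bcl6 and GC cells was no longer called (-0.97 ± 0.38, adjusted p = 0.076), and it was -0.66 ± 0.55 (adjusted p = 0.516) with the 3' minus 5' covariate. With that covariate the call for tumours labelled Myc/Bcl6 was lost as well (-1.35 ± 0.54, adjusted p = 0.0666). Between Lig4/p53 tumours and pro-B cells (8.92, 10.39 and 10.48) the difference was -0.18 ± 0.41 (adjusted p = 0.788).

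Across the stages Cdk4 was 9.81, 9.74 and 9.86 in pre-B cells, 9.09, 9.41, 9.42 and 9.08 in transitional cells, 9.69, 9.52, 9.79 and 8.88 in plasmablasts, and 9.73, 9.61 and 10.88 in plasma cells. The range of stage means was 1.06, and the stages did not pass the F-test (adjusted p = 0.0884), although both other probe sets did (adjusted p = 0.0426 and 0.00798). The bases before the start of Cdk4 are shown because all 3 of its probe sets differed between the tumour groups. They lie at chr10:127063285-127063534 on the plus strand (RefSeq, GRCm38.p6), with the E-box CACGTG in capitals.
Cdk4 promoter: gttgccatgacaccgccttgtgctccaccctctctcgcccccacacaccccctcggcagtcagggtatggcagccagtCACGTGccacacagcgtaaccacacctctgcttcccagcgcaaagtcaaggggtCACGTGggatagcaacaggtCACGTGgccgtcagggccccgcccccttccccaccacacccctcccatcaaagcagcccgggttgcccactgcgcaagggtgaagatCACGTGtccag
This window held 4 E-boxes, a motif that reads the same on both strands. At least 1 was found in 6.02% of 32851 windows of 250 bases, and 4 or more in 0.0213% (7 windows). Of 7 members with a window (9 windows), Cdk6 had 1 E-box and the others none.

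Cdk6 (1460291_at, chromosome 5, 3341004 to 3531008) was dim. Its mean of 3.00 was above that of 6.35% of genes, and differences at such levels are hard to tell from background. Lig4/p53 tumours had 2.45, 2.55 and 2.75 as lowest, median and highest level, against 4.61, 3.69 and 3.50 in pro-B cells, with no overlap (-1.35 ± 0.35, adjusted p = 0.00554). The highest of these pro-B values came from the narrow array, and without the narrow arrays the difference was -1.02 ± 0.30 (adjusted p = 0.0157). Without that pro-B array alone it was not called (adjusted p = 0.0835). In the remaining groups Cdk6 lay between 2.33 and 4.44, and in the other 9 comparisons it was not called.

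Cyclin E1 (Ccne1; 1416492_at, chromosome 7, 38097984 to 38107490), the partner of Cdk2 at the entry into S phase, was the one member called between pre-B and transitional cells. Transitional cells had 6.54, 5.92, 5.61 and 4.86, against 7.85, 7.75 and 7.65 in pre-B cells, without overlap. The difference was -2.02 ± 0.45 (adjusted p = 0.00868). It was called in 17 of 18 alternative settings and missed in the fit on these 2 groups alone (adjusted p = 0.0738). Pro-B cells had 6.41, 7.51 and 7.85, GC cells 6.60, 6.91, 6.37, 6.22 and 5.47, plasmablasts 7.26, 7.46, 7.11 and 5.67, and plasma cells 7.40, 7.62 and 7.35. The stages differed (F-test, adjusted p = 0.00878), transitional cells having the lowest mean and pre-B cells the highest. Ccne1 was higher in Lig4/p53 tumours (6.93, 7.62 and 7.95 as lowest, median and highest) than in tumours labelled Bcl6 (6.18, 6.42, 5.54 and 6.35), by 1.39 ± 0.36 (adjusted p = 0.00439), again with no overlap. After renewed quantile normalization it was 0.86 and not called (adjusted p = 0.115). It was 6.90, 5.66 and 6.43 in tumours labelled Myc/Bcl6. Against pro-B cells (Lig4/p53) or GC cells (the others) no tumour group differed by more than 0.26 in Ccne1.

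The bases before the start of Ccne1 are shown because its group means had the highest correlation with those of mitosis genes among the members. They lie at chr7:38107491-38107740 on the minus strand (RefSeq, GRCm38.p6), with GC boxes (GGGCGG on either strand) in capitals.
Ccne1 promoter: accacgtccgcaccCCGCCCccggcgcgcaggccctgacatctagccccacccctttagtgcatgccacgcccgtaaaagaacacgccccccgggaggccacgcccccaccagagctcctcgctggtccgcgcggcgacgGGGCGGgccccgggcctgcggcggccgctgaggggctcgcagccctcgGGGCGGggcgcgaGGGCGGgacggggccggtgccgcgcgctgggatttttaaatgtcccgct
It held 4 GC boxes, as did 4.09% of all windows or more, and 32.7% had at least 1. The E2F-type motif TTTNNCGC, searched on both strands, was found in 4.28% of windows and not in this one, and among the members in Cdk6.

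p27 (Cdkn1b; 1434045_at, chromosome 6, 134920401 to 134925525) was lowest in plasma cells, with 7.78, 6.84 and 6.57. Plasmablasts had 9.19, 10.04, 8.14 and 9.83, GC cells 10.29, 10.41, 9.98, 9.54 and 10.53, transitional cells 9.36, 9.92, 10.12 and 8.73, pre-B cells 9.02, 9.37 and 10.15, and pro-B cells 9.06, 9.87 and 9.97. On this probe set all 3 plasma cell arrays lay below all arrays of every other stage. The difference between plasma cells and plasmablasts was -2.23 ± 0.46 (adjusted p = 0.00174), and it was called in 19 of 19 alternative settings, with an adjusted p of 4.6e-05 to 0.018. The stages also differed as a whole (F-test, adjusted p = 0.000549). Tumours labelled Myc/Bcl6 had 7.25, 7.30 and 8.12 and those labelled Bcl6 9.26, 7.70, 8.96 and 9.08, both lower than GC cells (-2.59 ± 0.42 and -1.40 ± 0.38, adjusted p = 1.39e-05 and 0.00669) and without overlap. For tumours labelled Bcl6 the call was lost with the 3' minus 5' covariate (-1.31 ± 0.57, adjusted p = 0.163), after renewed quantile normalization (-0.90 ± 0.38, adjusted p = 0.0929) and without replicate 2, the narrow array (-1.05 ± 0.39, adjusted p = 0.0557). Lig4/p53 tumours had 8.77, 9.34 and 9.43 as lowest, median and highest, which overlapped with pro-B cells (-0.43 ± 0.40, adjusted p = 0.471).

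The second probe set of Cdkn1b, 1419497_at, lay 2.03 or more below the first in every tumour and in 3 sorted arrays. The difference of 1434045_at minus 1419497_at was 3.27 to 5.21 in Lig4/p53 tumours, 2.03 to 2.62 in tumours labelled Myc/Bcl6 and 3.32 to 6.15 in those labelled Bcl6. In sorted cells it was -1.12 to -0.72 in pro-B, -1.68 to 3.59 in pre-B, -1.12 to -0.32 in transitional and 0.53 to 1.90 in GC cells, -2.52 to 0.13 in plasmablasts and -2.64 to 3.69 in plasma cells. The highest pre-B value came from replicate 2, the narrow array, and plasma cell replicates 1 and 2 stood at 3.69 and 2.75 where replicate 3 stood at -2.64. Gaps of this size thus also ran the other way, in plasma cell replicate 3 and in plasmablast replicate 3 (-2.52). Their 3' minus 5' differences were 0.451 and 0.997. On 1419497_at Lig4/p53 tumours were lower than pro-B cells by -5.22 ± 0.85 (adjusted p = 5.55e-05), where the probe set used showed no call. It also gave -5.06 ± 0.80 for tumours labelled Bcl6 against GC cells, and -4.36 ± 1.05 for plasma cells against plasmablasts (adjusted p = 0.00637). On this second probe set plasma cell replicates 1 and 2 had 4.096 and 4.097, but replicate 3 had 9.22. The lowest plasmablast array had 9.71, and the lowest GC array, at 8.51, was below replicate 3. The difference of -4.36 thus rests mainly on replicates 1 and 2, those with the large 3' minus 5' difference. The 3' minus 5' difference was 2.25 or more in all arrays with a gap of 2.03 or more, but pro-B cells also reached 2.95 without such a gap. The part of RNA shortening in it was not tested.

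**Figure D3:**
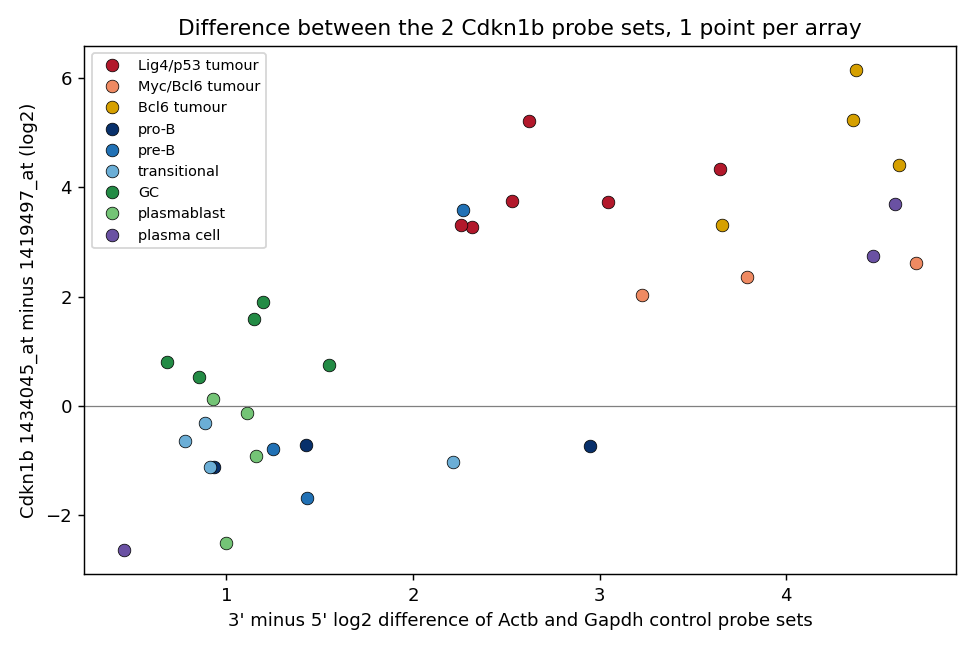
Difference in log2 intensity between the Cdkn1b probe sets 1434045_at and 1419497_at (vertical axis) against the log2 difference between 3' and 5' control probe sets of Actb and Gapdh (horizontal axis), with 1 point per array coloured by group. All 13 tumour arrays lie at 2.03 or more, together with plasma cell replicates 1 and 2 and pre-B replicate 2, while the other sorted arrays lie at 1.90 or less.

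p18 (Cdkn2c; 1416868_at, chromosome 4, 109660876 to 109666756) was lower in Lig4/p53 tumours than in pro-B cells, and in the other tumours than in GC cells. It had 4.72, 5.56 and 5.95 as lowest, median and highest level in Lig4/p53 tumours, against 7.14, 8.70 and 8.63 in pro-B cells (-2.67 ± 0.53, adjusted p = 0.000553). It was 4.94, 4.93 and 5.35 in tumours labelled Myc/Bcl6, and 6.42, 4.94, 5.81 and 5.24 in those labelled Bcl6, against 7.69, 7.22, 7.44, 6.61 and 6.42 in GC cells (-2.0 ± 0.55 and -1.48 ± 0.51, adjusted p = 0.00421 and 0.0298). The groups did not overlap in any of these comparisons, although the highest tumour labelled Bcl6 and the lowest GC array both round to 6.42. With the 3' minus 5' covariate neither difference from GC cells was called (adjusted p = 0.308 and 0.844). For tumours labelled Bcl6 the call was also lost in 5 of 9 fits without a single array (GC replicate 1, 2 or 3, or Bcl6 tumour replicate 2 or 4, adjusted p of 0.0546 to 0.115). Transitional cells had 6.75, 6.99, 5.97 and 5.68, plasmablasts 6.31, 6.58, 6.81 and 6.15, and plasma cells 5.99, 5.85 and 6.83. Between plasma cells and plasmablasts the difference was -0.24 ± 0.66 (adjusted p = 0.872). Pre-B cells had 9.15, 5.30 and 8.88, the low value again from the narrow array. Transitional minus pre-B was -1.43 ± 0.66 (adjusted p = 0.222), and -2.67 ± 0.39 without the narrow arrays (adjusted p = 0.000107).

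p19 (Cdkn2d; 1416253_at, chromosome 9, 21288459 to 21291421) had the smallest adjusted p of the members in the F-test over stages (0.000292). It was 6.14, 8.11 and 7.59 in pro-B, 8.84, 7.77 and 9.10 in pre-B, 7.65, 7.41, 6.41 and 6.77 in transitional and 7.94, 7.66, 7.61, 6.75 and 7.02 in GC cells. Plasma cells had 4.43, 3.74 and 5.74, against 6.78, 6.20, 6.93 and 6.42 in plasmablasts, with no overlap (-1.95 ± 0.50, adjusted p = 0.0101). The call was lost without plasma cell replicate 1 or 2 (adjusted p = 0.0504 and 0.0961), and without both the difference was -0.85 (adjusted p = 0.542). All 13 tumours lay below all pro-B and GC arrays. It was 4.25, 5.06 and 5.34 as lowest, median and highest in Lig4/p53 tumours (-2.42 ± 0.42 against pro-B cells, adjusted p = 0.000124). The tumours labelled Myc/Bcl6 had 3.87, 3.88 and 4.50 and those labelled Bcl6 4.54, 4.20, 4.80 and 5.14 (-3.31 ± 0.43 and -2.73 ± 0.40 against GC cells, adjusted p = 7.2e-07 and 5.84e-06). With the 3' minus 5' covariate the difference of tumours labelled Bcl6 from GC cells was -1.40 ± 0.50 and was not called (adjusted p = 0.084). In the order of means, the gap between plasmablasts and the next group, Lig4/p53 tumours, was 1.72 and larger than either SD.

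The retinoblastoma gene (Rb1; 1417850_at, chromosome 14, 73192858 to 73325951), the main substrate of the D cyclin kinases, varied less between stages, with a range of stage means of 1.17 (F-test, adjusted p = 0.0838). It was 7.51, 8.15 and 8.22 in pro-B, 9.13, 8.47 and 9.21 in pre-B, 7.96, 6.99, 8.34 and 7.75 in transitional and 7.58, 7.95, 8.52, 8.65 and 9.24 in GC cells, 8.65, 9.09, 8.64 and 8.33 in plasmablasts and 7.52, 7.73 and 8.35 in plasma cells. Tumours labelled Myc/Bcl6 had 5.77, 5.68 and 8.96, so that replicate 3 lay within the GC range and the other 2 below it. Their difference from GC cells, -1.58 ± 0.53 (adjusted p = 0.0147), was lost without Myc/Bcl6 tumour replicate 1 or 2, after renewed quantile normalization, with array weights, in the groups alone and with the 3' minus 5' covariate (adjusted p of 0.073 to 0.315 over these 6 settings). Tumours labelled Bcl6 had 8.77, 6.94, 8.09 and 8.69 (-0.27 ± 0.48, adjusted p = 0.702). Levels of 6.44, 7.04 and 8.01 were the lowest, median and highest of Lig4/p53 tumours (-0.89 ± 0.51 against pro-B cells, adjusted p = 0.214).

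**Figure D4:**
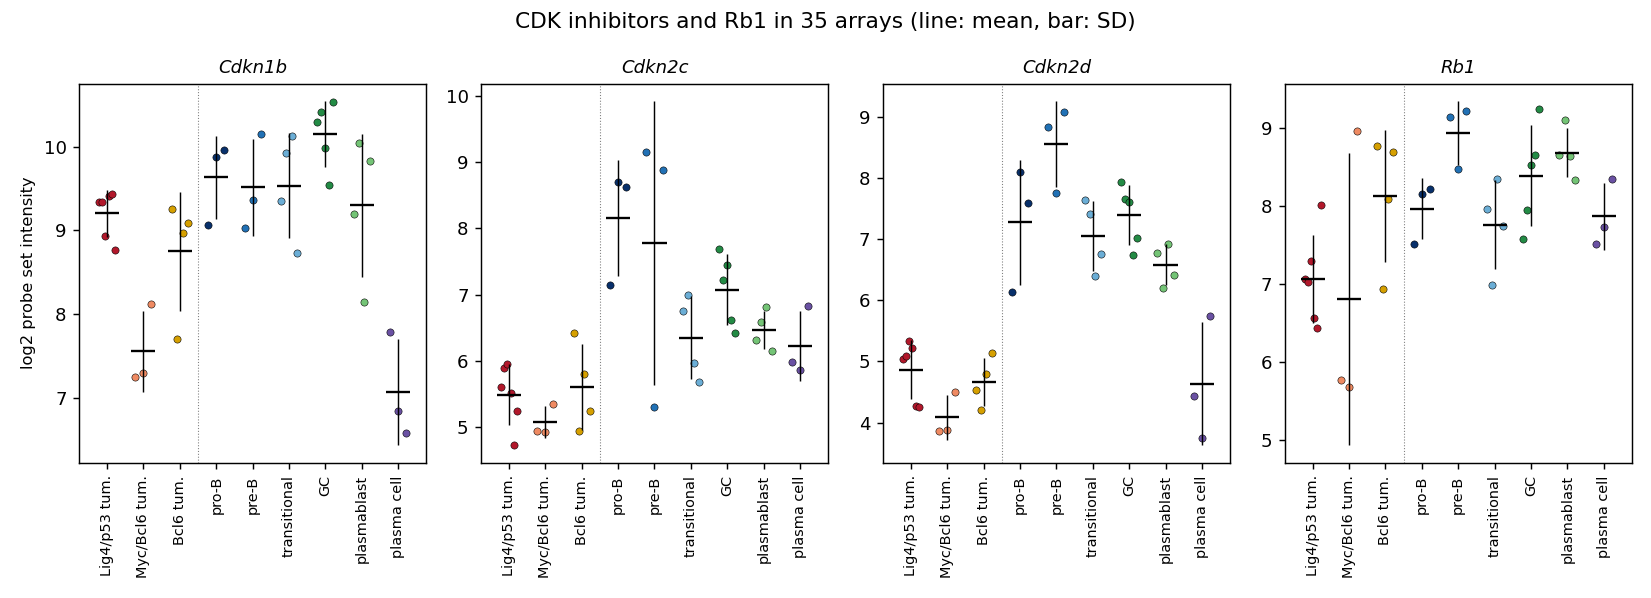
Log2 intensity (vertical axes, separate scale for each gene) of the inhibitors and Rb1 in each of the 35 arrays, with tumours left of the dotted line and sorted stages right of it; points are arrays, horizontal lines means and vertical lines the SD. Cdkn2d lies at 5.34 or below in all tumours, Cdkn1b on the probe set used has its lowest mean in plasma cells, and Cdkn2c shows 1 low pre-B array at 5.30.

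Counted over the members, the steps between neighbouring stages gave few calls. Between pre-B and pro-B cells 0 of 10 were called, against 0.161% of all genes, 0.113% higher and 0.0484% lower (2 had an unadjusted p under 0.05 in limma, and limma with array weights also called 0). From pre-B to transitional cells 1 was called lower, against 5.84% of all genes (2.93% higher and 2.91% lower). Without the narrow arrays 6 were called, Ccnd2 higher and Ccnd3, Ccne1, Cdkn2c, Cdkn2d and Rb1 lower. The share of all genes called in that fit is not given here, so this count is not a result about the members alone. GC against transitional cells gave 0 calls, against 13.5% of all genes, 5.29% higher and 8.21% lower (0 members at an unadjusted p under 0.05, and 1 with array weights), and plasmablasts against GC cells 0, against 0.678%, 0.121% higher and 0.557% lower (1 at an unadjusted p under 0.05, and 4 with array weights). The shares belong to the reported fits. They are not given for an unadjusted p or array weights, so those counts are not results about the members alone. Plasma cells against plasmablasts gave 3 lower, Ccnd3, Cdkn1b and Cdkn2d, against 14.3% of all genes (8.90% higher and 5.39% lower). With the 3' minus 5' covariate Ccnd3 was -0.81 (adjusted p = 0.486) and Cdkn2d -0.92 (adjusted p = 0.256), neither called, while Cdk4 was called higher (1.31, adjusted p = 0.0182). The median difference of the members was -0.556, against 0.222 for all genes. Of 8 granulocyte genes 7 were lower in plasma cells, where the list averaged 3.14 to 3.87, against 7.04 to 9.05 in plasmablasts, and 4 of 5 pan-B genes were lower. In the F-test over the 6 stages 4 members passed, against 32.5% of all genes. Strain changed along with stage between transitional and GC cells, and granulocyte markers changed with the stage: the list of 8 averaged 9.32 to 11.5 in pre-B, 3.82 to 6.08 in transitional and 7.01 to 9.36 in GC cells. GC cells were also higher than transitional cells in 5 of 5 NK cell genes (list means of 7.13 to 8.57, against 4.10 to 4.63), 5 of 6 T cell genes (6.32 to 7.48, against 4.99 to 5.34) and 4 of 6 macrophage genes (5.92 to 7.30, against 4.67 to 5.62). Their part in these differences was not tested.

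Tumours labelled Bcl6 had 5 members lower than GC cells, Ccnd3, Cdk4, Cdkn1b, Cdkn2c and Cdkn2d, against 26.8% of all genes called (13.0% higher and 13.9% lower). The median difference of the members was -0.812, against 0.212 for all genes. Tumours labelled Myc/Bcl6 had 6 lower, the same 5 and Rb1, against 48.1% called (27.2% higher and 20.9% lower), with a median of -1.777 against 0.310. Both comparisons share the GC arrays. With the 3' minus 5' covariate 0 and 3 members were called, and the shares of all genes in those fits are not given here. Markers of other cells moved alongside. Of 8 genes of stroma and vessels 7 were called higher in tumours labelled Bcl6 and 6 in those labelled Myc/Bcl6, and 1 was lower in each. The list averaged 5.84 to 6.98 and 5.61 to 7.05, against 3.77 to 4.10 in GC cells. Of 5 pan-B genes 3 and 4 were lower and 1 was higher in each, and the list averaged 6.90 to 7.46 and 5.62 to 7.74, against 9.24 to 9.75 in GC cells. All 5 NK cell genes and 5 of 8 granulocyte genes were lower in both. Of 6 macrophage genes 3 were higher in tumours labelled Bcl6. In those labelled Myc/Bcl6, 2 were higher and 1 lower. The part of these other cells in the result was not tested. Myc/Bcl6 tumour replicate 2 also had a liver list mean of 12.3, against 4.39 and 4.54 in its group.

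Lig4/p53 tumours had 1 member higher than pro-B cells, Ccnd1, and 4 lower, Ccnd3, Cdk6, Cdkn2c and Cdkn2d, against 21.1% of all genes called (13.2% higher and 7.91% lower). On the probe sets used, Ccnd1, Ccnd3, Cdkn2c and Cdkn2d were called in 19 of 19 alternative settings, but neither other probe set of Ccnd1 was called. The 18S rRNA control, 4.15 to 6.15 in these tumours and 10.8 to 11.3 in pro-B cells, moved with the groups, and its part was not tested. The stroma and vessel list was 4.02 to 4.603 in these tumours and 4.48 to 4.75 in pro-B cells, while the granulocyte list was 5.73 to 7.81, against 10.5 to 10.97 in pro-B cells. Between tumour genotypes, Lig4/p53 tumours had 4 members higher than tumours labelled Bcl6, Ccnd1, Ccnd3, Ccne1 and Cdk4, against 26.4% of all genes called (15.5% higher and 10.9% lower). The 3' minus 5' difference did not overlap between these groups, so genotype and RNA quality cannot be told apart here. Of the 8 stroma and vessel genes 7 were lower and 1 higher in the Lig4/p53 tumours of this comparison, and all 6 T cell genes were lower. The part of these other cells in it was not tested. Tumours labelled Myc/Bcl6 and Bcl6 differed in 0 members, against 3.91% of all genes, 1.94% higher and 1.97% lower (2 at an unadjusted p under 0.05, and 0 with array weights). Here too the shares belong to the reported fit only. Without the narrow arrays (Bcl6 tumour replicate 2 among them) Ccnd2, Cdk4, Cdkn1b and Rb1 were called lower. That fit kept the tumours labelled Myc/Bcl6, with interquartile ranges of 2.33 to 2.85, and its share of all genes called is not given here. In the F-test over the 3 tumour groups 5 members passed, against 45.3% of all genes.

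**Figure D5:**
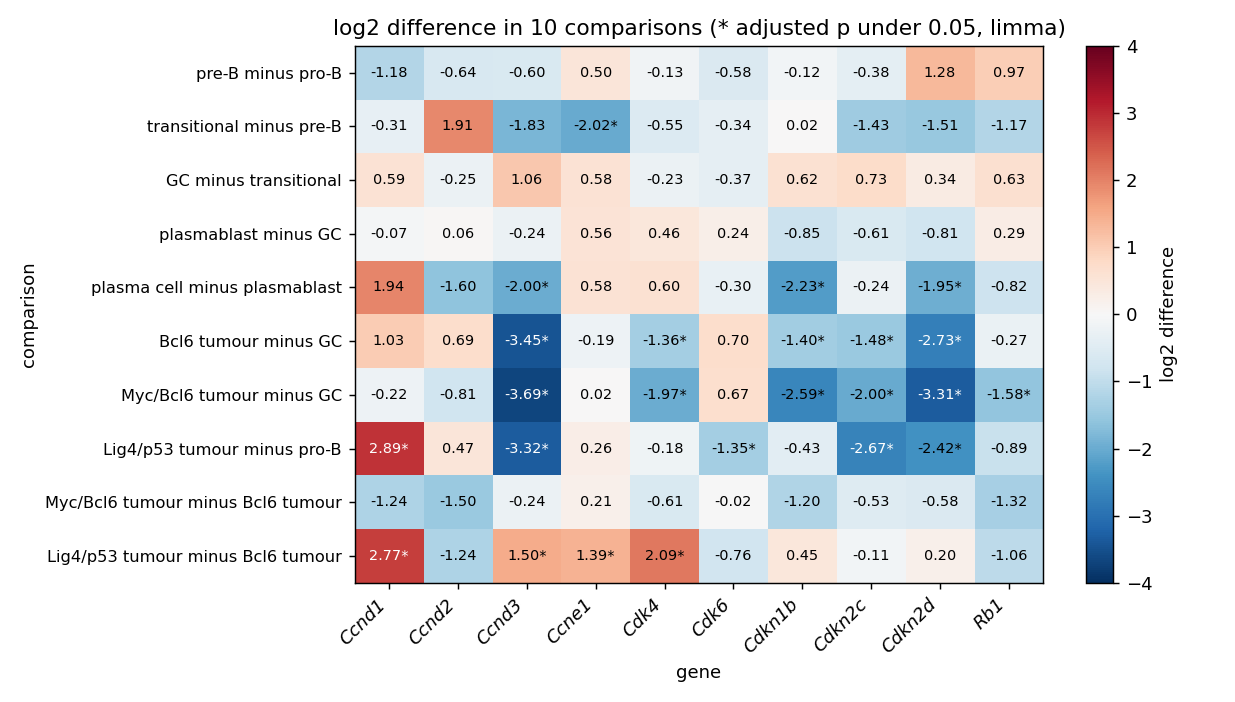
Log2 differences of the 10 members (columns) in the 10 comparisons (rows), red where the first group named is higher and blue where it is lower; an asterisk marks an adjusted p under 0.05. Blue cells with asterisks gather in the tumour rows for Ccnd3, Cdkn2c and Cdkn2d, and the only red cells with asterisks are Ccnd1 in 2 rows and Ccnd3, Ccne1 and Cdk4 in Lig4/p53 tumours minus tumours labelled Bcl6.

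Other genes of the same step were read from a list of 25, of which 22 were measured. GC cells had 6 of them higher than transitional cells and 0 lower, with a median difference of 0.635 against -0.270 for all genes. Of all genes 5.29% were called higher and 8.21% lower there. Tfdp1, the partner of E2F factors, was higher by 1.84 ± 0.42, Ccne2, the second cyclin E, by 1.86 ± 0.45, E2f8, an E2F repressor, by 2.46 ± 0.68, and Cks1b, a CDK subunit, by 1.19 ± 0.33. No member was called there. Transitional cells had 2 of the 22 lower than pre-B cells, against 2.91% of all genes. These were Cks1b (-1.76 ± 0.38) and Ccne2 (-1.89 ± 0.51). Plasma cells had 3 of the 22 higher than plasmablasts, against 8.90% of all genes. These were Cdkn1a (2.89 ± 0.65), which encodes p21, a relative of p27, Mnat1 (2.21 ± 0.55), a subunit of the CDK-activating kinase, and E2f6 (1.37 ± 0.42).

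Among tumours, Lig4/p53 tumours had 7 of the 22 higher than pro-B cells and 0 lower, against 13.2% and 7.91% of all genes. Cdkn2a, which encodes the INK4 inhibitor p16 and the p53 activator Arf, was higher by 4.08 ± 0.36 (7.60 against 3.52 on average). E2f6, Cdk7 and E2f5 were higher by 2.88 ± 0.50, 2.06 ± 0.41 and 1.93 ± 0.40. Against tumours labelled Bcl6, Lig4/p53 tumours had 9 of the 22 higher and 2 lower, where 15.5% and 10.9% of all genes were. Cdkn2a was again among the higher (2.93 ± 0.33), next to Tfdp1 (3.18 ± 0.55), E2f5 (2.23 ± 0.36) and Skp2 (2.71 ± 0.59), part of the ligase that marks p27 for destruction. Tumours labelled Bcl6 had 4 of the 22 higher and 5 lower than GC cells, against 13.0% and 13.9% of all genes. Among them were Tfdp1 (-2.83 ± 0.57), Cdk2 (-2.62 ± 0.57), E2f5 (-1.78 ± 0.38) and Cdkn2b (2.40 ± 0.55), a further INK4 inhibitor. Tumours labelled Myc/Bcl6 had 5 of the 22 higher and 9 lower than GC cells, against 27.2% and 20.9% of all genes. Among them were Tfdp1 (-3.38 ± 0.62), Fbxw7 (-3.53 ± 0.66), which marks cyclin E for destruction, Cdk2 (-2.98 ± 0.62) and Cks1b (1.53 ± 0.37). The counts of this list were not tested against the shares of all genes.

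Mitosis genes, 19 of 20 measured, gave a separate view of division. Transitional cells had 9 lower than pre-B cells and 0 higher (median -2.16), against 2.91% and 2.93% of all genes. Aurkb, a mitotic kinase, was at -4.36 ± 0.57. GC cells had 16 higher than transitional cells (median 2.30), against 5.29% of all genes, with Aurkb at 3.21 ± 0.51. Plasma cells had 5 higher than plasmablasts and 0 lower (median 1.39), against 8.90% and 5.39% of all genes. In the same arrays Cdkn1b was lowest on the probe set used. The list averaged 8.12 to 8.30 in plasma cells and 5.77 to 7.37 in plasmablasts. Tumours labelled Bcl6 had 0 higher and 5 lower than GC cells (median -0.868), against 13.0% and 13.9% of all genes. Those labelled Myc/Bcl6 had 1 and 8 (median -1.027), against 27.2% and 20.9%. Lig4/p53 tumours had 1 and 1 against pro-B cells (median 0.246), where all genes had 13.2% and 7.91%. Against tumours labelled Bcl6 they had 7 and 0 (median 1.205), where all genes had 15.5% and 10.9%. The part of division in the members' differences was not tested. Over the 9 group means, Ccne1 had a Pearson r of 0.79 with the mean of the mitosis list and Cdkn1b of -0.07. Cdkn2c and Cdkn2d had r = 0.87, Ccnd3 and Cdkn2c 0.94, and Ccnd3 and Cdkn2d 0.91. These values describe 9 points that share the gap between tumours and sorted cells; over the 6 stages alone they were 0.69, 0.91 and 0.81.

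For the members that passed the F-test over stages, the genes most alike in their 9 group means, among genes at or above the median level, were Gsr (r = 0.98) and Alyref (0.96) for Ccnd3, Nt5dc2 (0.95) and Ccnf (0.93) for Ccne1, Ccng2 (0.97) and Tmem71 (0.95) for Cdkn1b, and Arf1 (0.96) and Alyref (0.95) for Cdkn2d. They were picked as the highest of many correlations over 9 points and are given as a description.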

How the data were processed

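Values are log2 intensities per probe set, processed with RMA per the submitters' processing notes and deposited as 1 table of 35 arrays. Which arrays were normalized together is not given in the sources used here. RNA was isolated with Tripure and amplified with Ovation V2, per the labels' protocols. Of 22690 probe sets, 64 were controls. The platform annotation gave 1 symbol for 20380, which were used, several for 691 and none for 1555. Several probe sets read 4956 of the 12393 genes, and there the one of highest mean was taken. The number of arrays limits the precision.

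Contrasts and F-tests were fitted with limma 3.58.1 (R 4.3.3, statmod 1.5.0), on the 22 normal arrays for stages and on all 35 for tumours, 2-sided, with Benjamini-Hochberg adjustment over all genes. The fit was tested on simulated data. Coordinates and promoters are RefSeq's for GRCm38.p6. Python 3.11.15 with numpy 2.4.6, pandas 2.3.3 and matplotlib 3.10.9 made the descriptions and figures.

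Members and lists were chosen with earlier results of these data known. The rule for naming took all members in every comparison, up to 4 called genes of smallest p from the lists of other G1/S and mitosis genes, and the 2 genes most alike to each member that passed the F-test over stages. Some mitosis genes are given by count only, and genes that check labels or arrays are named beside them.

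Alternatives covered the probe set (others, or their mean), the removal of dim genes, the scaling (quantiles renewed, or medians made equal), the prior, weights per array, fewer groups in the fit, a replicate block, strain or the 3' minus 5' difference as covariate, and leaving out single arrays or the 3 narrow ones. The fit without plasma cell replicates 1 and 2 was added after seeing the data, and takes the lone array left to be as variable as other groups.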

Additional observations from a re-analysis of the deposited data

Results flagged for a closer look

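Each member was checked in the groups of 4 to 6 arrays, 50 sets of values in all, for an array whose gap to its neighbour took up most of the range of its group. By chance about 1 set in 20 would show this, and 2 did. Ccnd3 in plasmablast replicate 4 was 7.35, below the other plasmablasts at 7.87 to 7.93. Cdk4 in Bcl6 tumour replicate 2 was 6.49, below the others of its group at 7.96 to 8.11, and this array is 1 of the 3 with a narrow spread of values.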

How the results depend on the processing

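Among alternative counts of called members, 211 stayed within 1.5 times the count reported and 31 did not. Shares of all genes called are given above for the reported fits only. The alternative counts below therefore do not show whether the members moved apart from all genes. Transitional minus pre-B gave 4 calls after renewed quantile normalization, 2 with equal medians, 6 with array weights, 0 in the fit on those groups alone, 4 with the 3' minus 5' covariate, 6 without the narrow arrays and 1 to 5 with single arrays left out (5 without pre-B replicate 2). GC minus transitional gave 1 with array weights, in the groups alone and without the narrow arrays, and plasmablast minus GC gave 4 with array weights. Plasma cell minus plasmablast gave 5 on the mean of all probe sets, 7 with array weights, 5 in the groups alone, 5 without the narrow arrays, 1 to 4 with single arrays left out (1 without plasma cell replicate 1 or 2) and 1 without both of these. Bcl6 tumour minus GC gave 0 with the 3' minus 5' covariate and 2 to 5 with single arrays left out (2 without Bcl6 tumour replicate 2), and Myc/Bcl6 tumour minus GC gave 3 with that covariate. Myc/Bcl6 minus Bcl6 tumours gave 4 without the narrow arrays and 0 to 2 with single arrays left out. The F-test over stages called 7 after renewed quantile normalization, 7 with equal medians, 10 with array weights, 9 without the narrow arrays and 4 to 8 with single arrays left out (8 without pro-B replicate 1). The F-test over tumours called 8 without the narrow arrays. Of the single-gene results 5 reversed, all on other probe sets or their mean: for Myc/Bcl6 tumour minus GC, Ccnd1 was 0.89 on the mean of its probe sets and 2.08 on 1417419_at, and Ccnd2 was 2.52 on 1448229_s_at and 2.05 on 1455956_x_at, and for Myc/Bcl6 minus Bcl6 tumours Ccnd1 was 1.60 on 1417419_at. The cause was not tested. Deviations of same-numbered arrays of different groups from their group means correlated at r of -0.491 to 0.391. Differently numbered arrays were not correlated, so these values cannot decide whether the numbers pair arrays. A replicate block gave 1 call for transitional minus pre-B, 3 for plasma cell minus plasmablast and 5 for Bcl6 tumour minus GC. Cdk6, the dimmest member, is limited by signal near background.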
